A study of Sesbania grandiflora with 21 samples.

Results

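Among 97500 assembled genes of Sesbania grandiflora leaves, 7 passed a rule for a level well above the control group ck in all 3 treated groups with the suffix L and near or below ck in the 3 treated groups with the suffix S. Sesbania grandiflora is a legume tree, which the series title places under drought together with salt. The sample titles give 7 groups of 3 leaf libraries, namely ck, DS-L, Y-L, DS+Y-L, DS-S, Y-S and DS+Y-S. The stated design counts 4 groups, and nothing in the labels relates these to the 7 in the titles. The labels explain neither the treatment letters nor the suffixes, give no dose, time, age or genotype, and name no plant behind a library, so every spread and p-value below may be technical. The control ck carries no suffix, so L and S each share the same control libraries. Each library was made from messenger RNA captured on oligo(dT) beads.

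The genes were chosen by their counts, in CPM, the count divided by the library total and scaled to 1000000. The quantity compared was d, the mean of log2(CPM + 1) in a group minus that mean in ck, so that a d of 1 is about a doubling for a gene well above 1 CPM. A gene qualified with a group mean of at least 5 CPM in any group, a d of at least 0.7 in DS-L, Y-L and DS+Y-L, and a d under 0.3 in DS-S, Y-S and DS+Y-S. DS+Y-S replicate 1 was left out, so 20 libraries were used. Of the 97500 genes, 18177 reached 5 CPM and 7 of these qualified, which is 0.0385%. Because these values chose the genes, their differences from ck and between L and S are given as a description, with no test. The genes are called members 1 to 7 below, in falling order of their smallest d among the L groups.

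Drought and salt both make it harder for a plant to take up water, and salt also loads its tissues with sodium and chloride ions. Plants are known to answer both with the hormone abscisic acid and with transcripts for protective solutes, ion transport and the repair of damaged proteins. None of the 7 can be placed in such a pathway, because the identifiers come from an assembly made without a reference genome and the table pairs them with no gene name, description or sequence. The identifiers of 2 members are printed, namely the member with the largest smallest d and the most abundant member, and no role is given to any of them. Leaves hold several cell types, and in such bulk samples fewer cells of a type and less RNA per cell cannot be told apart.

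Library totals ran from 16431940 to 20138058 counts. DS+Y-S replicate 1 stood apart, with counts on 36755 genes and with exactly 1 count on 489 genes. The other 20 libraries had counts on 47279 to 61454 genes and exactly 1 count on 4705 to 8533. The lowest count behind any value of a member in those 20 libraries was 13, and the 7 members together held 80.8 to 329 CPM per library.

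How the genes higher at L stood at S depends on the limit used, and both are set against the same 3 ck libraries, so their agreement is a description. Of the genes with a mean of at least 5 CPM, 740 had a d of 0.7 or more in all 3 L groups, and the 7 members were 0.946% of these. In 347 of the 740, or 46.9%, d also reached 0.7 in all 3 S groups, and in 64 it reached 0.7 in none of them. In 605 of the 740, d was at least 0.3 in every S group, while 102 had 1 S group under 0.3 and 26 had 2. The median d of the 740 was 0.85 in DS-S, 0.90 in Y-S and 1.61 in DS+Y-S. With L and S exchanged, 5 genes qualified as higher at S only, which is 0.821% of the 609 at 0.7 or more in all 3 S groups. With the signs reversed, 13 genes qualified as lower at L only and 1 as lower at S only. The number that qualified as higher at L only is thus close to the number that qualified with the suffixes exchanged.

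**Figure D1:**
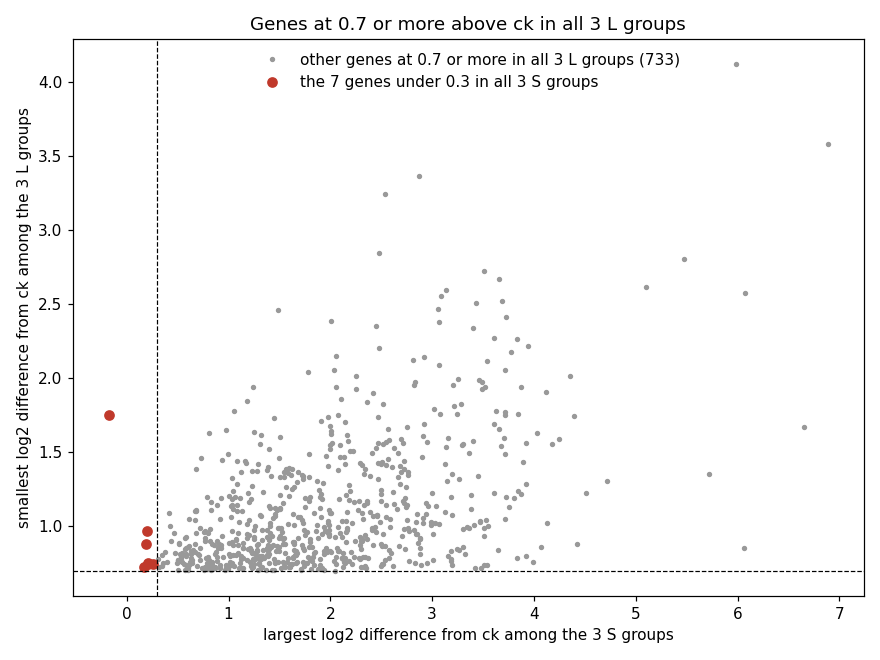
Each point is 1 of the 740 genes with a d of at least 0.7 in all 3 L groups, with its largest d among the S groups on the horizontal axis and its smallest d among the L groups on the vertical axis, both in log2 units; dashed lines mark the thresholds 0.3 and 0.7. The 7 members (red) lie left of the vertical line, and 6 of them lie at a smallest L value of 0.96 or less.

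Most members lay close to the thresholds. The smallest d among L groups was 1.75, 0.96, 0.88, 0.75, 0.75, 0.74 and 0.73 for members 1 to 7. The largest d among S groups ran from -0.18 in member 1 to 0.26 in member 5. Just outside the L threshold, the next genes that met the other conditions had a smallest L d of 0.67, 0.65 and 0.64, and 9 genes lay within 0.1 of it. Just outside the S threshold, the next genes had a largest S d of 0.30, 0.31 and 0.35, and 7 genes lay within 0.1. A further 4 genes met both conditions on d but stayed under 5 CPM, the highest of them at 3.78 CPM.

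Member 1, TRINITY_DN4947_c0_g1, had the widest distance between L and S. In ck it stood at 37.3, 7.89 and 1.36 CPM in replicates 1 to 3. In DS-L it stood at 92.6, 33.0 and 147 CPM, in Y-L at 28.7, 15 and 79.5 CPM, and in DS+Y-L at 21, 20.5 and 63.4 CPM. The ck libraries spanned a 27.4-fold range, and ck replicate 1 lay above 5 of the 9 L libraries, leaving 4 above all of ck. Its S libraries stood at 4.12, 16.3 and 5.28 CPM in DS-S, at 3.94, 5.16 and 12.0 CPM in Y-S, and at 14.2 and 2.0 CPM in DS+Y-S replicates 2 and 3. Of these 8, only DS-S replicate 2 reached the lowest L library, Y-L replicate 2. The d values were 3.07, 1.86 and 1.75 in DS-L, Y-L and DS+Y-L, and -0.18, -0.34 and -0.46 in DS-S, Y-S and DS+Y-S. As a mean, ck held 15.5 ± 19.1 CPM, DS-L 91.0 ± 57.1, Y-L 41.1 ± 34.0 and DS+Y-L 35 ± 24.6 CPM (SD, n = 3 each).

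Member 2 was a gene of low level. It stood at 3.31, 6.68 and 1.90 CPM in ck. In DS-L it stood at 10.1, 19.4 and 2.13 CPM, in Y-L at 10.2, 13 and 3.77 CPM, and in DS+Y-L at 10.2, 10.3 and 7.27 CPM. The 3 DS+Y-L libraries lay above ck, while replicate 3 of DS-L and of Y-L fell within the ck range. The S libraries held 4.77, 3.37 and 4.78 CPM in DS-S, 1.37, 4.10 and 4.53 CPM in Y-S, and 2.41 and 1.17 CPM in DS+Y-S, none of them above ck. Its d was 0.96, 0.99 and 1.15 in DS-L, Y-L and DS+Y-L, and 0.20, -0.17 and -0.75 in DS-S, Y-S and DS+Y-S.

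Member 3 stood at 16.2, 23.2 and 14.6 CPM in ck. It stood at 32.9, 57.8 and 19.0 CPM in DS-L, at 85.1, 42.1 and 28.1 CPM in Y-L and at 47.4, 44.7 and 49.2 CPM in DS+Y-L. All L libraries but DS-L replicate 3 lay above ck, and DS+Y-L was the most even of the 3 groups at 47.1 ± 2.24 CPM (SD, n = 3). The S groups were uneven, at 9.98, 11.6 and 41.9 CPM in DS-S, 16.9, 13.3 and 36.7 CPM in Y-S, and 20.1 and 18.7 CPM in DS+Y-S. Replicate 3 of DS-S and of Y-S thus exceeded ck, and their groups passed the S limit through the other libraries.

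Member 4 separated ck from L most cleanly together with member 7. It stood at 32.6, 28.2 and 28.0 CPM in ck, and its L libraries held 51.9, 43.6 and 56.5 CPM in DS-L, 56.3, 62.9 and 63.5 CPM in Y-L and 40.6, 86.4 and 51.7 CPM in DS+Y-L. All 9 L libraries lay above all 3 ck libraries. The S libraries held 53.7, 18.1 and 26.6 CPM in DS-S, 22.9, 25.8 and 50.9 CPM in Y-S, and 31.1 and 37.6 CPM in DS+Y-S. DS-S replicate 1 and Y-S replicate 3 reached the L range. Its d was 0.75 in DS-L, 1.02 in Y-L and 0.92 in DS+Y-L, and 0.21 or less in the S groups.

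Member 5, TRINITY_DN2614_c0_g1, was the most abundant of the 7 at L, with a mean of 83.7 CPM over the 9 L libraries. It stood at 52.7, 27.8 and 50.3 CPM in ck. It stood at 81.8, 68.8 and 86.4 CPM in DS-L, at 72.3, 134 and 66.8 CPM in Y-L and at 74.0, 133 and 36.3 CPM in DS+Y-L. DS-L and Y-L lay wholly above ck, whereas DS+Y-L replicate 3 fell below 2 of the 3 ck libraries. The S libraries held 68.3, 29.4 and 63.3 CPM in DS-S, 38.9, 40.3 and 81.5 CPM in Y-S, and 46.4 and 42.8 CPM in DS+Y-S. Of these, 3 exceeded every ck library, and 7 of the 8 exceeded the lowest L library. Group means were 43.6 ± 13.7 CPM in ck, 79.0 ± 9.16 in DS-L, 90.9 ± 37.2 in Y-L and 81.1 ± 48.7 in DS+Y-L (SD, n = 3 each).

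Member 6 was uneven within groups, as member 1 was. It stood at 4.34, 1.42 and 10.4 CPM in ck, at 8.13, 5.72 and 13.6 CPM in DS-L, at 2.98, 9.38 and 17.1 CPM in Y-L and at 31.5, 5.56 and 2.24 CPM in DS+Y-L. Only 3 of the 9 L libraries exceeded all of ck, and no L group lay wholly above it. The S libraries held 2.98, 0.718 and 1.83 CPM in DS-S, 3.11, 9.91 and 3.12 CPM in Y-S, and 2.41 and 9.89 CPM in DS+Y-S. DS-S was the low group, with a d of -0.97, while Y-S and DS+Y-S were at 0.11 and 0.21.

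Member 7 was the lowest in CPM of the 7, and even within ck, at 2.49, 3.32 and 2.17 CPM. All 9 L libraries lay above ck, at 5.28, 6.39 and 3.67 CPM in DS-L, 4.86, 6.84 and 5.13 CPM in Y-L, and 4.73, 9.96 and 3.82 CPM in DS+Y-L. The S libraries held 3.97, 1.27 and 2.45 CPM in DS-S, 3.11, 3.05 and 3.06 CPM in Y-S, and 2.64 and 2.50 CPM in DS+Y-S. DS-S replicate 1 alone reached the L range, above the L libraries at 3.67 and 3.82 CPM. Its group mean passed 5 CPM in the L groups only, at 5.11 to 6.17 CPM. Member 2 likewise passed 5 CPM in the L groups only, at 9.01 to 10.6 CPM.

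**Figure D2:**
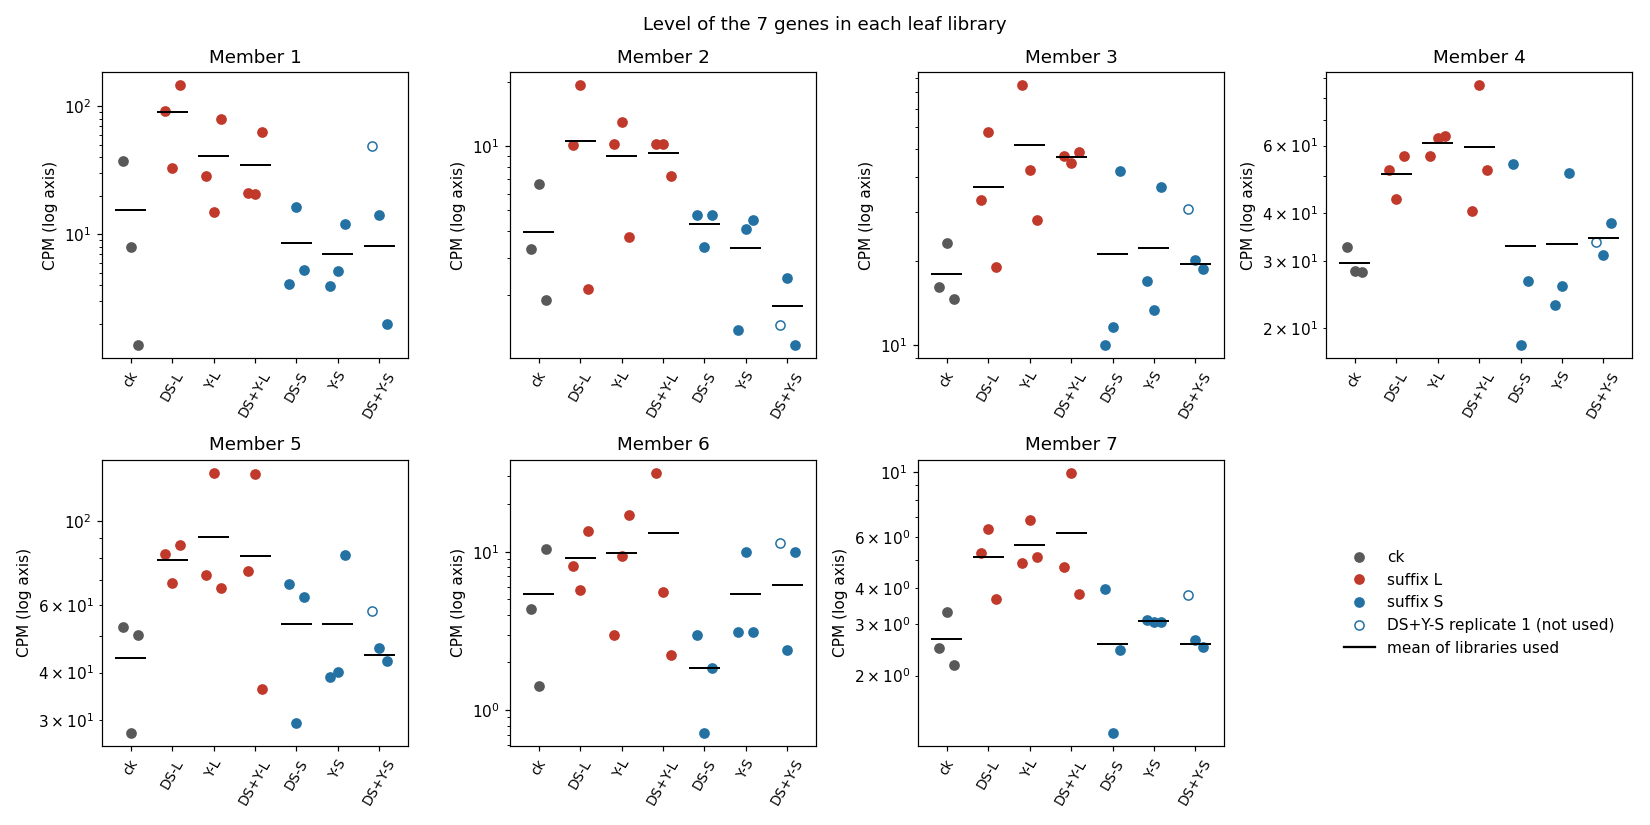
Each panel shows 1 member, with its CPM on a log axis by group (ck grey, suffix L red, suffix S blue); each point is 1 library and the bars are means of the libraries used. In members 4 and 7 all 9 red points lie above the 3 grey points, and in each panel at least 1 filled blue point reaches the lowest red point.

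Over the members as a set, DS-L lay wholly above ck in 3 of 7 (8.74% of all genes of 5 CPM or more did so), Y-L in 4 (12.9%) and DS+Y-L in 4 (14.5%). DS-S lay wholly above ck in 0 (6.55% of all), Y-S in 0 (7.44%) and DS+Y-S in 0 (12.2%). All 9 L libraries exceeded all 3 ck libraries in 2 members, against 2.85% of all genes. Nothing is read from these counts, since the rule used the same contrasts. In 0 of the 7 did all 9 L libraries exceed all 11 ck and S libraries, and the same held for 0 of the 18177 genes (0%). The higher means of the L groups follow from the rule. The overlap of their libraries with the rest was shared by all 18177 genes, so nothing particular to the members is read from it.

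By the rule all 7 members had a d of 0.7 or more in DS-L (11.2% of all genes of 5 CPM or more), Y-L (13.5%) and DS+Y-L (17.6%), and 0 did in DS-S (7.43%), Y-S (8.27%) or DS+Y-S (13.9%). A d under 0.3 was likewise set for all 7 in DS-S (74.5% of all), Y-S (71.8%) and DS+Y-S (74.1%). The median d of the members was 0.88 in DS-L, 1.02 in Y-L and 0.92 in DS+Y-L, where the median of all genes of 5 CPM or more was -0.01, -0.03 and 0.01. At S it was -0.04 in DS-S, 0.11 in Y-S and 0.09 in DS+Y-S, against 0.07, 0.09 and -0.08 for all genes. In DS-S 4 members were below ck (41.1% of all genes), in Y-S 2 (40.5%) and in DS+Y-S 3 (56.1%). DS+Y-L replicate 3 was the lowest library of its group in members 2, 5, 6 and 7 and the highest in members 1 and 3. Without it the members' median d in DS+Y-L was 1.23.

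The rule did not fix how far the L groups differ from each other above its limit, and that was tested. The members were chosen by counts of the same libraries, and a gene low in any L group could not enter. Counts of members called between L groups are thus in part set by the choice, and their distance from the share of all genes is not read. The 3 L groups together gave 0 called members among the 7 in the quasi-likelihood F test of edgeR, a count model fitted over all genes, at a Benjamini-Hochberg adjusted p of 0.05, and 5 of the 41105 genes tested (0.0122%). At an unadjusted p under 0.05 the test passed 0 members and 15.2% of all genes, and DESeq2 called 0 members and 1.56% of the 92613 genes it tested. The combined label DS+Y-L was then set against DS-L and Y-L in turn. For DS+Y-L against DS-L, edgeR called 0 members and 0% of all genes, with 0 members and 13.2% of all genes at an unadjusted p under 0.05. DESeq2 called 0 members there and 1.03% of all genes. DS+Y-L against Y-L gave 0 members in edgeR (0% of all genes), 0 at an unadjusted p under 0.05 (12.7% of all) and 0 in DESeq2 (0.723% of all). DS-L against Y-L gave 0 members in edgeR (0% of all genes), 0 at an unadjusted p under 0.05 (12.0% of all) and 0 in DESeq2 (0.615% of all).

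The intervals of these differences were wide. For member 1, DS+Y-L against DS-L was -1.49 on the log2 scale (SE 1.01, 95% interval -3.62 to 0.63, edgeR adjusted p = 0.541), and DS-L against Y-L was 1.20 (SE 1.0, interval -0.91 to 3.31, edgeR adjusted p = 0.651). This was the member with the largest differences between L groups, and its 2 highest L libraries were both DS-L. For member 5, DS+Y-L against DS-L was 0.08 (SE 0.50, interval -0.98 to 1.14, edgeR adjusted p = 0.968) and DS+Y-L against Y-L was -0.23 (SE 0.50, interval -1.29 to 0.83, edgeR adjusted p = 0.881). Member 2 had the smallest difference, 0.00 for DS+Y-L against DS-L, with an interval of -1.32 to 1.32. Member 4 had the narrowest interval there, -0.63 to 1.10 around 0.24. The 3 S groups together gave 0 members in edgeR (0% of all genes), 0 at an unadjusted p under 0.05 (4.30% of all) and 0 in DESeq2 (0.150% of all). The rule limited d in every S group, so these counts of members too are in part set by the choice.

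**Figure D3:**
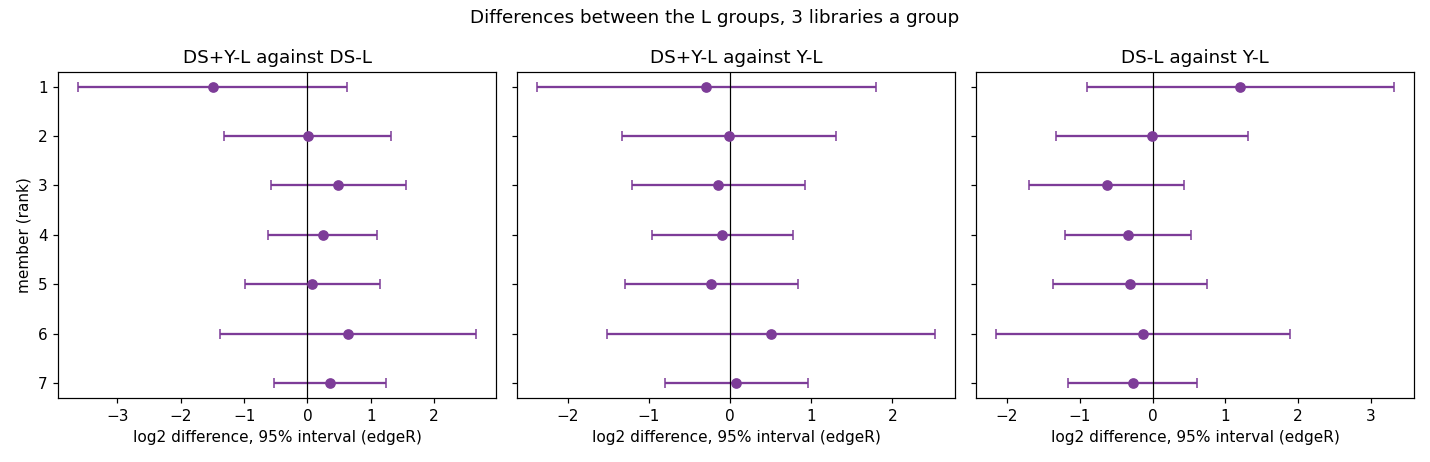
Each point is the edgeR log2 difference of 1 member between 2 L groups of 3 libraries, and each bar is its 95% interval. All 21 intervals include 0, and those of members 1 and 6 are the widest.

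DS+Y-S replicate 1 was the 1 library that the rule did not use. The ck libraries it is set against were used, so its values are a description. It held 49.2 CPM of member 1, 1.45 of member 2, 30.7 of member 3, 33.6 of member 4, 58.1 of member 5, 11.4 of member 6 and 3.78 of member 7. It exceeded all 3 ck libraries in 6 of the 7, as it did in 31.7% of all genes of 5 CPM or more. Against the ck mean it was under 0.3 on the log2 scale in 2 of the 7 members, and in 64.2% of all genes. In the other 5 members it was at 0.3 or more. With it included, 6 genes met the rule, and 4 of the 7 members were among them. Members 1, 3 and 6 were not, because their d in DS+Y-S became 0.50, 0.34 and 0.55.

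Each of the 20 libraries was then left out in turn, the rule was applied to the other 19, and the left-out library was set against the mean of the ck libraries used. Over the 9 L libraries, 62 picks were made, some of them the same gene, and the left-out library was at 0.7 or more in 34 of them, or 54.8%. Among all genes of 5 CPM or more, a left-out L library reached 0.7 in 7.73% to 22.4%. Over the 8 S libraries, the left-out library was under 0.3 in 27 of 55 picks, or 49.1%, where all genes of 5 CPM or more gave 58.0% to 77.7%. It reached 0.7 in 19 of the 55, or 34.5%, against 6.41% to 23.8% of all genes. The S libraries were uneven, in the picks and in all genes. Y-S replicate 3 alone gave 7 of the 19, from 10 picks, and 23.8% of all genes reached 0.7 in it. Y-S replicate 1 gave 0 from 4, and 6.41% of all genes reached 0.7 in it. A left-out ck library was set against the other ck libraries. For ck replicate 1 it was under 0.3 in 5 of 8 picks, against 84.1% of all genes. For ck replicates 2 and 3 it was so in 6 of 7 and 7 of 9 picks, against 59.5% and 68.9% of all genes. The picks and the left-out value share ck libraries, so these shares are a description.

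Membership moved with single libraries. Between 4 and 10 genes met the rule when 1 library was left out, and 3 to 7 of the members were among them. The count was lowest, at 4, without DS-S replicate 2, DS+Y-L replicate 2 or Y-S replicate 1, and highest, at 10, without Y-S replicate 3. Over the 20 fits 41 different genes met the rule at least once. Member 1 met it in 18 of 20, failing without ck replicate 1 and without DS+Y-S replicate 3. Member 4 met it in 16, members 2, 3 and 7 in 15 each, member 5 in 13 and member 6 in 11. Leaving out ck replicate 2 or ck replicate 3 left 3 of the 7 members each, and leaving out ck replicate 1 left 4.

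**Figure D4:**
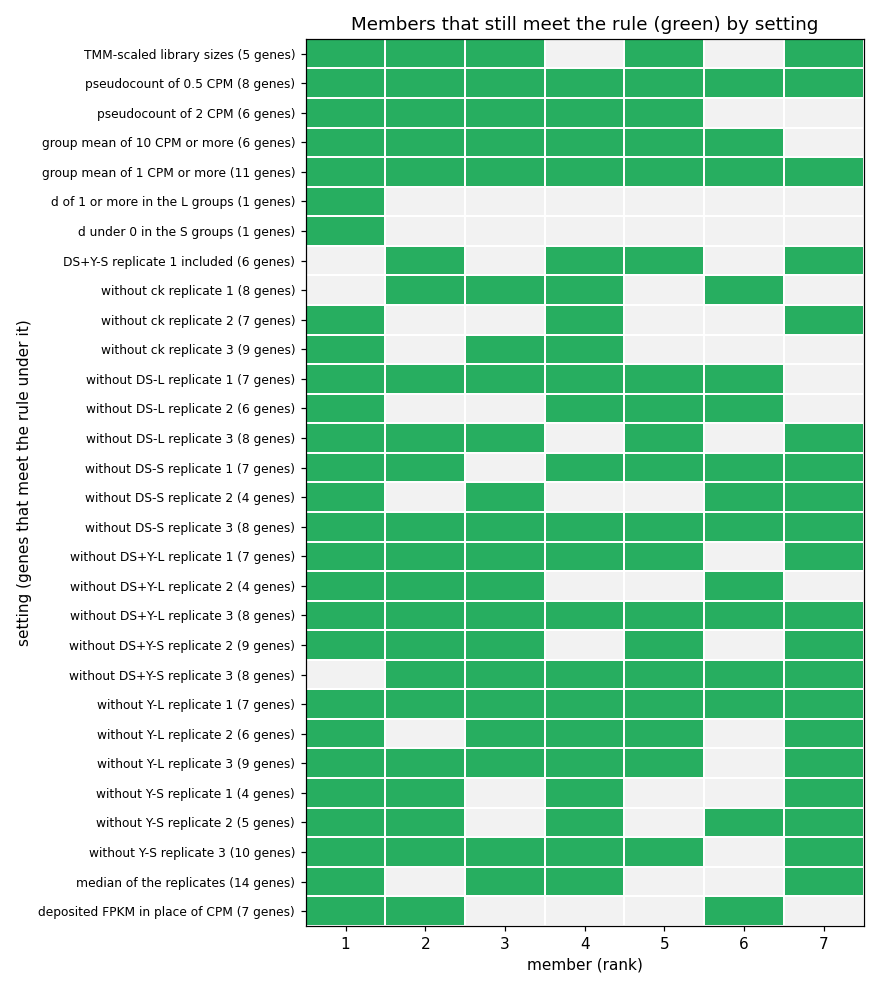
Rows are other settings of the rule and fits without 1 library, with the number of genes that met the rule in brackets; columns are members 1 to 7, and green marks a member that met the rule. Member 1 is green in all but 3 rows, and member 6 drops out most often among the rows that leave out a library.

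The members did not vary as 1 block within groups. Deviations of log2(CPM + 1) from the group mean were correlated over the 20 libraries for the 21 pairs of members, giving a median r of 0.03 (range -0.45 to 0.67), where all pairs of the 18177 genes had a median of 0.06. Members 4, 5 and 7 varied together, with r of 0.67 for members 4 and 5, 0.60 for 4 and 7, and 0.59 for 5 and 7. Member 2 varied with member 3 (r = 0.59) and with member 7 (r = 0.51). Member 1 had r from -0.41, with member 7, to -0.0024, with member 4. In all, 5 of 21 pairs, or 23.8%, exceeded 0.5, against 14.5% of all gene pairs. The values share libraries and library totals, and are a description.

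Per length, in FPKM (counts scaled to gene length and library depth) as deposited by the authors, the order of levels was different. Over the L libraries member 5 averaged 188 FPKM, member 4 93.9, member 3 52.3, member 1 40.0, member 7 23.0, member 2 10.6 and member 6 9.58 FPKM. In ck the means were 93.3, 42.5, 18.1, 11.8, 10.2, 4.29 and 4.54 FPKM in the same order. Member 7, the lowest of the 7 in CPM, thus stood above members 2 and 6 per length.

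The count and the FPKM of a gene together imply the length over which it was counted. The rule used the count but not the FPKM, so this length is not independent of the choice of the genes. The fit below is on contrasts that the rule used, and nothing particular to the members is read from its counts. In member 1 this length was 1345 to 1422 bases in the 9 L libraries and ranged from 839 to 1395 bases in ck, with ck replicate 3, the library at 1.36 CPM, the shortest. In member 4 it was 501 and 515 bases in 2 of the DS+Y-L libraries and 545 to 732 bases in the other libraries used, DS+Y-S replicate 1 left out. A limma fit of log2 implied length over 18274 genes, added after the data were seen, called 0 of 7 members for the mean of the L groups against ck, where 0.0328% of all genes were called. At an unadjusted p under 0.05 it passed 2 members and 10.8% of all genes. The largest difference was 0.34 in member 1 (SE 0.10, limma adjusted p = 0.360). For the mean of L against the mean of S it called 0 members (0.0164% of all genes), with 0 members and 6.38% of all genes at an unadjusted p under 0.05.

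The 7 members came from 7 different clusters of the assembly, a cluster being here the genes whose identifiers carry the same DN number. Members 4 and 5 were the only genes of their clusters, and the others had 1 to 7 relatives each, with 5 for member 2 and 7 for member 6. Without sequences, how alike the relatives are and whether reads were divided among them was not tested. Of the relatives with a group mean of 5 CPM or more, 1 had a d of 0.7 or more in all 3 L groups. It belonged to the cluster of member 3, with a smallest L d of 0.70, and in the S groups its largest d was 2.04. It averaged 95.7 CPM over the L libraries, where member 3 averaged 45.1 CPM. The relative of member 1 had a d of 0.22 in DS-L, -0.02 in Y-L and -1.49 in DS+Y-L, and 0.25, 0.35 and -0.12 in DS-S, Y-S and DS+Y-S, at a mean of 3.39 CPM over the L libraries.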

How the data were processed

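The authors deposited 1 table holding, per the file headers, a count and an FPKM value for each assembled gene and library. Of the counting program, its length model and any rounding, nothing is given in the sources used here. Columns were matched to samples by title. CPM was count divided by the column sum; d used a pseudocount of 1 CPM. Tests used edgeR 4.0.16 in R 4.3.3 on the counts of 20 libraries: filterByExpr by group, TMM scaling, glmQLFit and glmQLFTest with 7 groups, which left 41105 genes, all 7 members among them. The common dispersion was 0.326. A call means a p under 0.05 after Benjamini-Hochberg adjustment, over all genes tested in edgeR and limma. In DESeq2 the adjustment covered the genes that its default filter kept, while its shares are of the 92613 genes with a p-value. DESeq2 1.42.0 was an alternative on the 20 libraries. Implied length was computed from the count, the library total and the deposited FPKM (genes with at least 10 counts and 0.5 FPKM in every library), fitted with limma 3.58.1. The edgeR and limma steps were run on simulated data with changes of set size, and no power for the members is read from that. Libraries of a group differed by far more than sampling noise (chi-square per degree of freedom of 30.6 or more). The 2 printed identifiers follow a rule: the largest smallest L d, and the highest mean CPM at L. The members, rules and tests were chosen with earlier results of these data known.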

Additional observations from a re-analysis of the deposited data

Results flagged for a closer look

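DS+Y-S replicate 1 was used neither to choose the genes nor in the main tests, and in 6 of the 7 members it lay above every ck library. It stood at 49.2 CPM in TRINITY_DN4947_c0_g1 (ck up to 37.3), at 30.7 CPM in member 3 (ck up to 23.2) and at 33.6 CPM in member 4 (ck up to 32.6). It stood at 58.1 CPM in TRINITY_DN2614_c0_g1 (ck up to 52.7), at 11.4 CPM in member 6 (ck up to 10.4) and at 3.78 CPM in member 7 (ck up to 3.32). The same library exceeded all of ck in 31.7% of the genes of 5 CPM or more, and it had counts on the fewest genes, 36755. The part of that in these values was not tested.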

How the results depend on the processing

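The count of 7 genes was 11 with a group mean of 1 CPM or more, 1 with a d of 1 or more in the L groups, 1 with a d under 0 in the S groups, and 14 with medians of the replicates in place of means, an alternative chosen after seeing the data. It ran from 4 to 10 when 1 library was left out. TMM scaling gave 5 genes, all members. It moved the median of all genes to 0.10 in Y-L and 0.09 in DS+Y-L, and from -0.08 to 0.04 in DS+Y-S. Members 4 and 6 dropped out with a d of 0.33 and 0.31 in DS+Y-S. Deposited FPKM for the differences, also chosen after seeing the data, gave 7 genes with 3 members among them.

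Members called stayed at 0 in every fit of the contrasts between L groups and among S groups, with 1 exception. Without a low-count filter edgeR called 1 member among the 3 L groups and 1 in DS+Y-L against DS-L, both TRINITY_DN4947_c0_g1 (adjusted p = 0.00752 and 0.0124), and 4722 and 2787 genes in all. The cause was not tested. All genes called among the L groups numbered 5 in the main fit, 1444 in DESeq2 and 1 in a fit to these groups alone. With 1 library left out they ran from 0 to 1356, the highest without DS+Y-L replicate 3. Without that library edgeR also called 1065 genes in DS+Y-L against DS-L and 941 in DS+Y-L against Y-L. In DS-L against Y-L all genes called ran from 0 to 5 with 1 library left out.

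With 1 library left out, TRINITY_DN4947_c0_g1 ran from -0.90 to 0.58 in DS+Y-L against Y-L. TRINITY_DN2614_c0_g1 ran from -0.41 to 0.46 in DS+Y-L against DS-L, -0.72 to 0.29 in DS+Y-L against Y-L and -0.53 to 0.21 in DS-L against Y-L. These signs are not settled.

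Same-numbered libraries correlated from -0.47 to 0.62 (19 of 57 pairs over 0.1). Of the 20 libraries, 4 were closest to their own number, and the main tests did not pair libraries by number. Within the L groups the pairs ran from -0.22 to 0.29. Within the S groups DS-S with Y-S was at 0.01 in replicate 1, and the other pairs ran from 0.11 to 0.62. The pairs were not alike: of the 15 among ck and the S groups 13 were over 0.1, with all 3 of ck and Y-S at 0.13 to 0.45, and of the 42 that involve an L group 6 were. With the replicate number as a block, members called were 0 in all 5 contrasts, and all genes called among the L groups 8. In the fit of implied length, which includes ck, the block gave 0 members called in both contrasts. All genes called there were 0 for the mean of L against ck and 1 for the mean of L against the mean of S.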
